A study of Mus musculus with 6 samples.

Results

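PPAR, ERR and PGC-1 proteins, with NRF1 and TFAM downstream, form the regulatory network that sets the fuel use and the mitochondrial content of cardiomyocytes (CMs). Their 10 genes were given by symbol: Ppara, Ppard, Pparg, Ppargc1a, Ppargc1b, Esrra, Esrrb, Esrrg, Nrf1 and Tfam. All 10 were found among 16448 genes with values, and all 10 were among the 11364 genes tested (a normalized count of at least 10 in at least 3 samples). RNA-seq was performed on ventricular CMs from mice that lack Cpt1b in CMs (Cpt1bcKO, αMHC-Cre pos/+ with Cpt1b fl/fl) and from controls that carry the Cre but no floxed allele (CtrlCre, αMHC-Cre pos/+ with Cpt1b+/+), with 3 samples in each group. All mice were on a C57BL/6 background and 8 to 12 weeks old, and controls were littermates. Cre is driven by the promoter of the α-myosin heavy chain gene, which is active in CMs before birth, so that deletion begins long before the age of sampling. CMs were obtained by enzymatic perfusion of the heart and removal of the atria, and not by sorting. The samples are labelled only by group and number, and the p-values therefore measure the spread between these samples.

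PPARα, PPARδ and PPARγ are nuclear receptors that are activated by fatty acids and bind DNA together with a retinoid X receptor (RXR). PPARα and PPARδ drive genes of fatty acid uptake and oxidation in the heart, whereas PPARγ is best known as the regulator of adipocytes. The estrogen-related receptors ERRα, ERRβ and ERRγ act largely without a hormone and activate genes of the Krebs cycle and the respiratory chain. PGC-1α and PGC-1β, the products of Ppargc1a and Ppargc1b, bind no DNA themselves and are coactivators of both receptor families. NRF1, nuclear respiratory factor 1, binds promoters of respiratory genes, and TFAM is the protein that packages mitochondrial DNA and starts its transcription. CPT1B, the muscle form of carnitine palmitoyltransferase 1, passes long-chain fatty acids to mitochondria for oxidation, so that its loss bears on the lipids that PPARs sense.

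Values are normalized counts, meaning reads per gene divided by a size factor of the sample and rounded, as the authors deposited them. Cpt1b itself was at 1861, 893 and 1443 in the 3 CtrlCre samples and at 211, 353 and 285 in the Cpt1bcKO samples. Its groups did not overlap, and it fell by 2.27 on the log2 scale (SE 0.27, adjusted p = 0.00338, limma with Benjamini–Hochberg adjustment over all genes tested). The sums of the values per sample ranged from 13393411 to 31722217, of which the mitochondrial ribosomal RNA mt-Rnr2 took 63.2% to 64.6% in CtrlCre and 61.8% to 80.8% in Cpt1bcKO. Without mitochondrially encoded and ribosomal RNA genes the sums were 3146414 to 3551692. The read depth behind a value is unknown because the values were scaled before deposit. Xist, transcribed from the inactive X chromosome of females, was at 957 in CtrlCre sample 1 and at 1080 in Cpt1bcKO sample 1 and at 23 to 78 in the other 4 samples, while the Y-linked Ddx3y was at 0 in those 2 samples and at 576 to 710 in the others.

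The CM label was checked against marker genes. All 8 CM markers were abundant, and all 8 had lower values in Cpt1bcKO, 2 of them at an unadjusted p below 0.05 and none at an adjusted one (limma). All 7 fibroblast markers tested were higher in Cpt1bcKO at an unadjusted p below 0.05, 2 of them, Col1a1 and Lum, at an adjusted one, and the summed value of the list was 498 to 785 in CtrlCre and 1108 to 1338 in Cpt1bcKO. Over all genes tested, 13.9% reached this unadjusted threshold and 1.57% the adjusted one. The 8 endothelial markers summed to 1201 to 2514 in CtrlCre, with CtrlCre sample 1 lowest, and to 2217 to 2589 in Cpt1bcKO. Mural cell markers summed to 606 to 1998 and 1103 to 1592, macrophage and leukocyte markers to 128 to 222 and 164 to 185, and the 3 atrial markers with values to 65 to 236 and 117 to 154, in the same order of groups. Of 8 adipocyte markers 3 had values, with sums of 817 to 996 and 769 to 1036, and the 2 erythroid markers with values summed to at most 20. The part of these other cells in the results that follow was not tested, and fewer cells of a type and less RNA per cell cannot be told apart in such bulk samples.

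To compare levels between the regulators, values were divided by the length of all exons of the gene in kb (GENCODE vM21, GRCm38). Ppargc1a had by far the highest level, 184.7 ± 11.4 normalized counts per kb in CtrlCre (SD, n = 3). Esrrg followed with 73.3 ± 10.2, Tfam with 62.0 ± 11.1, Ppara with 50.8 ± 7.64 and Ppargc1b with 47.4 ± 8.87 per kb. Among these, Esrrg and Tfam, Tfam and Ppara, Tfam and Ppargc1b, and Ppara and Ppargc1b could not be ordered, because their CtrlCre samples overlapped. Esrra was at 32.4 ± 5.49, Esrrb at 20.9 ± 2.91, Pparg at 10.6 ± 1.74, Ppard at 7.01 ± 0.38 and Nrf1 at 4.18 ± 0.58 per kb, with no overlap between neighbours in this order. Within the PPAR family the CM samples thus held mostly Ppara, and within the ERR family mostly Esrrg. Reads were pooled over all transcripts of a gene, so that a gene with long exons that CMs do not use appears lower on this scale than it is.

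**Figure D1:**
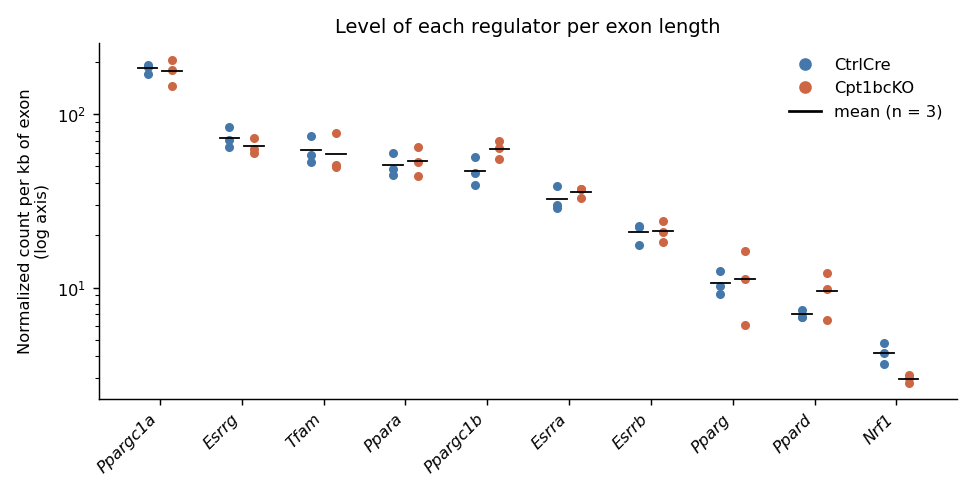
Normalized count per kb of exon (log axis) of the 10 regulators, ordered by the mean of the CtrlCre samples. Points are samples, 3 in each group, and horizontal lines are means. Ppargc1a lies at 184.7 per kb and Nrf1 at 4.18 per kb in CtrlCre.

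The first comparison asks whether the genes of the regulators themselves differed between Cpt1b-deficient and control CMs. None of the 10 passed an adjusted p of 0.05 (limma), a threshold that 1.57% of all genes tested passed. At an unadjusted p below 0.05, which 13.9% of all genes reached, there was 1 of 10, Ppargc1b, with a higher value in Cpt1bcKO. Genes that were higher at this threshold made up 6.66% of all genes tested and genes that were lower 7.22%. The log2 fold changes of the regulators lay between −0.47 and 0.42, 5 of them above and 5 below 0, and their median was 0.0016 against −0.0013 for all genes tested. No adjusted call was made for any regulator under any of the 16 alternatives either.

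Ppara, the main PPAR of the heart, lies on chr15:85735564-85802819 and was at 185, 172 and 228 in CtrlCre samples 1, 2 and 3 and at 170, 203 and 247 in the Cpt1bcKO samples. The lowest and the highest value both came from Cpt1bcKO, so that the groups overlapped. The log2 fold change was 0.08 (95% interval −0.35 to 0.50, adjusted p = 0.897), so that the interval leaves room for values from 0.785 to 1.42 times those of the controls. Ppara was thus measured at a similar mean level, 195.0 ± 29.3 in CtrlCre and 206.7 ± 38.6 in Cpt1bcKO (SD, n = 3). The interval does not show that the levels were equal.

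Ppard, encoding the ubiquitous PPARδ, lies on chr17:28232754-28301469. Its values were close together in CtrlCre, 56, 51 and 51, and spread widely in Cpt1bcKO, 74, 49 and 91. Samples 1 and 3 of Cpt1bcKO lay above all controls and sample 2 lay below them. The log2 fold change of 0.39 (95% interval −0.18 to 0.96) did not pass the test (adjusted p = 0.549). It rested on single samples, at 0.63 without Cpt1bcKO sample 2 (unadjusted p = 0.0297, adjusted p = 0.487 from limma, the 1 regulator at that unadjusted threshold in this fit) and at 0.19 without Cpt1bcKO sample 3.

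Pparg lies on chr6:115360951-115490399 and had low values, 27, 37 and 30 in CtrlCre and 33, 48 and 18 in Cpt1bcKO. The Cpt1bcKO samples enclosed all controls. Its log2 fold change was −0.02 with a wide 95% interval of −0.82 to 0.78 (adjusted p = 0.987). At this level a change within that interval was not detectable in 3 against 3 samples.

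Ppargc1a, the coactivator gene induced by fasting, cold and exercise, lies on chr5:51454250-51553922. It was at 1243, 1276 and 1133 in CtrlCre and at 1190, 1366 and 961 in Cpt1bcKO. Sample 3 had the lowest value in each group, with an overlap of the groups. The log2 fold change was −0.07 (SE 0.16, 95% interval −0.41 to 0.28, adjusted p = 0.888), with the smallest SE of the 10 regulators.

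Ppargc1b, whose product PGC-1β shares most partners of PGC-1α, lies on chromosome 18. It was at 227, 183 and 157 in CtrlCre samples 1, 2 and 3 and at 221, 255 and 281 in the Cpt1bcKO samples. Samples 2 and 3 of Cpt1bcKO lay above all controls, while Cpt1bcKO sample 1 lay below CtrlCre sample 1, so that the groups overlapped by this pair. The log2 fold change was 0.42 (SE 0.19, 95% interval 0.01 to 0.84), a 1.34-fold higher value, with an unadjusted p of 0.0439 and an adjusted p of 0.344. The overlapping pair consists of the 2 samples with high Xist. Leaving out this pair, an alternative chosen after the data were seen, removes the overlap and enlarges the difference by itself. Among the other 4 samples the log2 fold change was 0.66 (SE 0.17). The adjusted p there was 0.0896 (limma), within a range of 0.0896 to 0.662 over all alternatives. The unadjusted call did not hold when CtrlCre sample 2, CtrlCre sample 3, Cpt1bcKO sample 2 or Cpt1bcKO sample 3 was left out, nor with 1 prior variance for all genes. In these fits the unadjusted p-values were 0.0995, 0.173, 0.0993, 0.129 and 0.0807, in that order, and the adjusted p was 0.450 to 0.662 (limma).

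Within a sample the ratio of Ppargc1b to Ppargc1a does not depend on how the sample was scaled. This ratio was 0.183, 0.143 and 0.139 in CtrlCre and 0.186, 0.187 and 0.292 in Cpt1bcKO. All Cpt1bcKO samples lay above all controls, 2 of them only just above CtrlCre sample 1. A test of 3 against 3 samples by exact permutation cannot reach 0.05 and was not made.

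**Figure D2:**
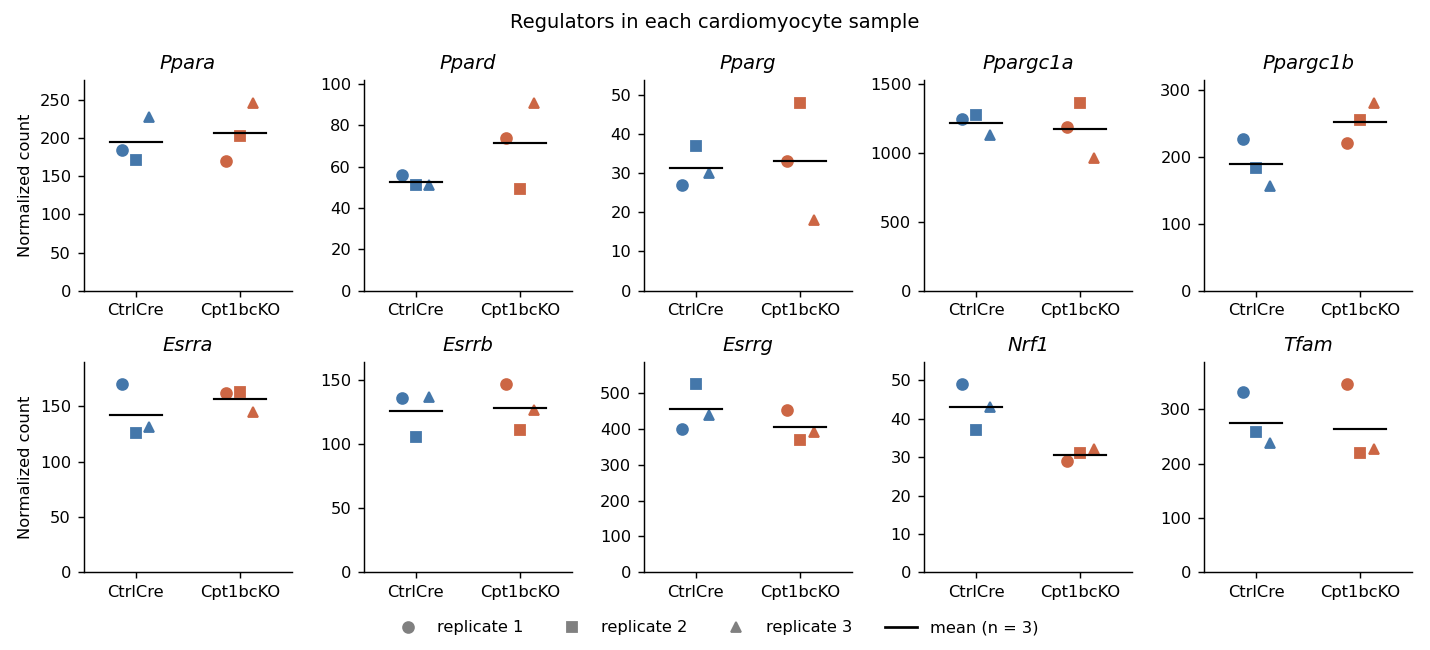
Normalized counts of each regulator in each sample, with the y axis starting at 0. Coloured symbols are samples, marked by replicate number, and black lines give the mean (n = 3). Nrf1 is the only panel of 10 in which the groups do not overlap, and in Ppargc1b 1 Cpt1bcKO sample, at 221, lies below 1 control, at 227.

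Esrra, whose product ERRα is the ERR most tightly linked to PGC-1 in muscle, lies on chr19:6910977-6921808. It was at 170, 126 and 131 in CtrlCre and at 162, 163 and 145 in Cpt1bcKO. CtrlCre sample 1 had the highest value of all, and the other controls had the lowest. On the log2 scale the difference was 0.15 (95% interval −0.25 to 0.55, adjusted p = 0.768). It was 0.28 without CtrlCre sample 1 and 0.068 without CtrlCre sample 2. Exons of Esrra share 91 bases with the microRNA gene Mir6990 on the same strand and 73 bases with Trmt112 on the opposite strand, both genes with low values here, and whether counting used the strand is not given in the sources used here.

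Esrrg lies on chr1:187609029-188214885 and encodes ERRγ, which activates the oxidative programme of the heart around birth. It was at 401, 525 and 440 in CtrlCre and at 454, 370 and 392 in Cpt1bcKO. Samples 2 and 3 of Cpt1bcKO lay below all controls and sample 1 lay among them. Its log2 fold change was −0.16 (95% interval −0.52 to 0.19, adjusted p = 0.696). The overlap came from Cpt1bcKO sample 1, which has high Xist. Over the 4 samples with low Xist the log2 fold change was −0.33 (SE 0.15, adjusted p = 0.293, and up to 0.920 over all alternatives, limma). This fit leaves out the lowest control and the highest Cpt1bcKO sample, which enlarges the difference by itself. The log2 fold change of Esrrg was −0.25 without CtrlCre sample 1 and −0.057 without CtrlCre sample 2. With scaling to the total without mitochondrially encoded and ribosomal RNA it was −0.052.

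Esrrb, encoding ERRβ and best known from pluripotent cells and the placenta, lies on chr12:86361117-86521628. It was at 136, 106 and 137 in CtrlCre and at 147, 111 and 127 in Cpt1bcKO, with sample 2 lowest in each group. This gave a log2 fold change of 0.02 (95% interval −0.41 to 0.45, adjusted p = 0.974). The ratio of Esrra to Esrrg was 0.321 ± 0.0941 in CtrlCre and 0.389 ± 0.0450 in Cpt1bcKO (SD, n = 3), and the groups overlapped.

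Nrf1 (chr6:30047988-30153458) here is nuclear respiratory factor 1 and not the stress factor that shares its abbreviation. It was at 49, 37 and 43 in CtrlCre and at 29, 31 and 32 in Cpt1bcKO. Every Cpt1bcKO sample lay below every control, which made Nrf1 the only 1 of 10 regulators whose groups did not overlap, compared with 18.7% of all genes tested. The log2 fold change of −0.47 (SE 0.25, 95% interval −1.02 to 0.08) did not pass the test (unadjusted p = 0.0889, adjusted p = 0.438). These values are low, and the fit estimates their spread in part from other genes of similar level. With 1 prior variance for all genes in place of the trend, Nrf1 reached an unadjusted p of 0.0361 as the only regulator and an adjusted p of 0.346 (limma), within a range of 0.315 to 0.708 over all alternatives.

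Tfam (chr10:71225464-71238280) was at 331, 258 and 237 in CtrlCre and at 346, 219 and 226 in Cpt1bcKO. Sample 1 was highest in each group by a wide margin, and the groups overlapped. Between groups the log2 fold change was −0.08 (95% interval −0.55 to 0.39, adjusted p = 0.905). In the fit over the 6 samples with the high Xist pair as a covariate, also chosen after the data were seen, the SE of Tfam dropped from 0.21 to 0.13, with an adjusted p of 0.775 (0.422 to 0.988 over all alternatives).

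**Figure D3:**
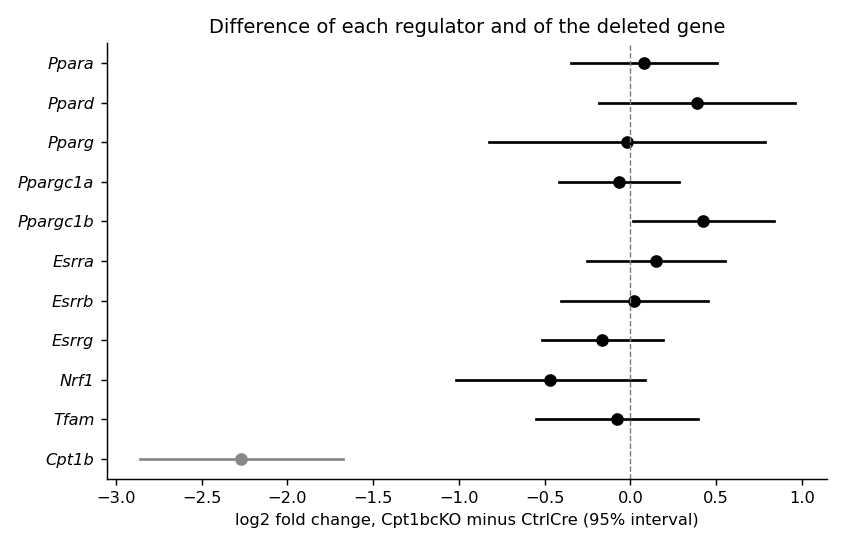
Log2 fold change (Cpt1bcKO minus CtrlCre, on log2 of the normalized count + 1) of the 10 regulators and of Cpt1b, with the 95% interval from the fit over all genes. The interval of Ppargc1b begins at 0.01, those of the other 9 regulators include 0, and Cpt1b lies at −2.27.

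NRF1 and the ETS factor GABP are known to act on promoters of this network, Tfam among them, and the RefSeq promoters of GRCm38.p6 were therefore searched, each reaching from 250 bases before to 50 bases after the RefSeq start (16 windows for 9 of the regulators). The NRF1 core CGCATGCG, which reads the same on both strands, was found in 1 of 16 windows, beginning 30 bases before the RefSeq start of Ppara, and in 1.87% of 32851 windows of all genes. The ETS core CCGGAAG, searched on both strands, was found in 1 of 16 windows, beginning 47 bases before the RefSeq start of Tfam, and in 8.86% of all windows. The deposited table bounds both genes more widely than these RefSeq starts, so that both cores lie inside the genes as it gives them. In GENCODE vM21 the Ppara core is in no exon, and the Tfam core lies in an exon, within the UTR of a transcript that starts further out. The ERR core AAGGTCA (4.72% of all windows) and the cAMP response element TGACGTCA (1.79%) were in none of the 16 windows, which says only that these letters are not there. The cores do not overlap each other. Each match is shown with 10 bases on either side and the core in capitals, at chr15:85735736-85735763 on the plus strand and chr10:71238075-71238101 on the minus strand, because these are the only matches.
Ppara: ggctcggtggCGCATGCGcgcggactag
Tfam: ctgccgcggaCCGGAAGtccgggcttc
These matches are a description of sequence and not evidence of binding in these cells.

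The partners of the regulators were examined next, as a list of 24 RXRs, coactivators, corepressors, kinases and other transcription factors that act with them. None passed an adjusted p of 0.05 (limma). At an unadjusted p below 0.05 there were 0 higher and 2 lower genes, 8.33% of the list against 13.9% of all genes tested. In Cpt1bcKO 15 of 24 had a lower value (62.5%, against 50.2% of all genes tested), and the median log2 fold change was −0.11. The groups did not overlap in 4 of 24 genes, Gabpa, Rxra, Perm1 and Ncor1, compared with 18.7% of all genes tested. With 1 sample left out, the median ran from −0.15 without Cpt1bcKO sample 1 to −0.053 without Cpt1bcKO sample 2. In these fits 1 to 4 genes of the list reached an unadjusted p below 0.05 (limma). Gabpa, encoding the DNA-binding subunit of the ETS factor GABP (also called NRF2), was at 437, 396 and 374 in CtrlCre and at 319, 238 and 219 in Cpt1bcKO. All Cpt1bcKO samples lay below all controls, with a log2 fold change of −0.65 (SE 0.18, adjusted p = 0.117). Cited2, a gene for a transcriptional coregulator, was at 115, 100 and 59 in CtrlCre and at 61, 37 and 45 in Cpt1bcKO (log2 fold change −0.90, SE 0.29, adjusted p = 0.198). Its groups overlapped by 1 control.

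The adjusted p of Gabpa passed 0.05 under some treatments of the samples. It was 0.0282 without Cpt1bcKO sample 1, 0.0150 with the high Xist pair as a covariate and 0.0380 over the other 4 samples, and it reached 0.417 when another sample was left out.

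Rxra, which encodes the widely expressed RXRα, was at 162, 138 and 152 in CtrlCre and at 136, 110 and 127 in Cpt1bcKO, without overlap (log2 fold change −0.28, SE 0.17, adjusted p = 0.523). Rxrg, the RXR of muscle, was at 229.0 ± 4.36 and 230.7 ± 43.0 (SD, n = 3; log2 fold change −0.01, adjusted p = 0.990). Perm1, a muscle gene that PGC-1 and ERR induce and that acts back on their targets, was at 1999, 1597 and 1784 in CtrlCre and at 1596, 1271 and 1533 in Cpt1bcKO, separated by a difference of 1 between samples (log2 fold change −0.29, SE 0.15, adjusted p = 0.422). The corepressor gene Ncor1 was at 1114 to 1125 in CtrlCre and at 997 to 1066 in Cpt1bcKO, a log2 fold change of −0.13 (adjusted p = 0.688) without overlap. Nrip1, encoding the corepressor RIP140, stood at a log2 fold change of 0.09 (adjusted p = 0.906), and Pprc1, the third gene of the PGC-1 family, one of 0.10 (adjusted p = 0.874).

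Targets of PPARs were examined to see how the products of these genes behaved beside the receptors. Of 35 listed genes 33 had values and 32 were tested, which leaves out Fgf21, at 0 in all samples but 1. In this list 22 genes had a higher value in Cpt1bcKO and 10 a lower value, with a median log2 fold change of 0.20 against −0.0013 for all genes. None passed an adjusted p of 0.05 (limma), and 6 were higher and 0 lower at an unadjusted p below 0.05. These are 18.8% of the list, whereas 6.66% of all genes tested were higher and 7.22% lower at this threshold. The groups did not overlap in 5 of 32 genes, compared with 18.7% of all genes tested. The spread between controls was large in this list, with a median ratio of the highest to the lowest control of 1.56, compared with 1.42 over all genes and 1.32 over the 10 regulators. The list's median depended on single samples. It was 0.026 without Cpt1bcKO sample 1 and 0.057 without CtrlCre sample 3, each with 13 lower genes, and 0.35 without CtrlCre sample 1 and 0.44 without Cpt1bcKO sample 3. The number of genes at an unadjusted p below 0.05 was 2 without CtrlCre sample 3 or Cpt1bcKO sample 2, 3 without CtrlCre sample 2, 10 without CtrlCre sample 1 and 11 without Cpt1bcKO sample 3. Without Cpt1bcKO sample 1 there were 3 higher and 3 lower genes at this threshold. With the high Xist pair as a covariate 9 were higher and 2 lower, 2 of the list passing an adjusted p of 0.05 (limma). Of all genes tested, 1087 were higher and 1280 lower at the unadjusted threshold in this fit. Over the 4 samples with low Xist 8 were higher and 2 lower with no adjusted call, against 894 and 1030 of all genes. Scaling to the total without mitochondrially encoded and ribosomal RNA gave a list median of 0.31, against 0.11 for all genes. It gave 10 higher and 0 lower genes of the list at an unadjusted p below 0.05, against 1220 and 500 of all genes.

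Pdk4, the kinase that keeps pyruvate out of the Krebs cycle and a standard readout of PPARs, was at 5605, 3909 and 1573 in CtrlCre and at 21655, 8824 and 5458 in Cpt1bcKO. Only CtrlCre sample 1 and Cpt1bcKO sample 3 overlapped. Its log2 fold change was 1.64 (SE 0.51, adjusted p = 0.179, limma). For the protein, the authors reported from blots that PDK4 did not increase in Cpt1b-deficient CMs, so the RNA values do not give the level of the kinase. Angptl4, an inhibitor of lipoprotein lipase, was at 60, 32 and 5 in CtrlCre and at 128, 112 and 30 in Cpt1bcKO (log2 fold change 1.74, SE 0.78, adjusted p = 0.355). Without CtrlCre sample 3 the log2 fold change of Angptl4 was 0.77, and without Cpt1bcKO sample 1 that of Pdk4 was 1.09. Sample 1 was highest and sample 3 lowest in each group for both genes.

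Hadhb, the thiolase subunit of the mitochondrial trifunctional protein, was at 2600, 2942 and 2131 in CtrlCre and at 3420, 4176 and 3063 in Cpt1bcKO, without overlap (log2 fold change 0.47, SE 0.17, adjusted p = 0.239). Plin5, which coats lipid droplets near mitochondria, was at 425, 395 and 375 in CtrlCre and at 659, 506 and 427 in Cpt1bcKO (log2 fold change 0.39, adjusted p = 0.358, and 0.22 without Cpt1bcKO sample 1). Cidea, another lipid droplet gene, was at 84, 51 and 48 in CtrlCre and at 114, 90 and 80 in Cpt1bcKO (log2 fold change 0.66, adjusted p = 0.287), with an overlap of 1 sample in each group.

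Other standard PPAR targets were less separated. Ucp3, a mitochondrial carrier that responds to fatty acids, was at 450, 407 and 58 in CtrlCre and at 1136, 354 and 237 in Cpt1bcKO (log2 fold change 1.05, SE 0.74, adjusted p = 0.573). This value of Ucp3 rested on single samples, at 0.094 without CtrlCre sample 3 and 0.39 without Cpt1bcKO sample 1, and up to 1.56 without another sample. Acot1, an acyl-CoA thioesterase, was at 57, 26 and 15 in CtrlCre and at 63, 37 and 12 in Cpt1bcKO (log2 fold change 0.11, SE 0.60, adjusted p = 0.958). Acot1 and Acot2 are near-identical genes, so that reads on either may have been lost as ambiguous. In both Ucp3 and Acot1 sample 3 was lowest in each group, a pattern that Ppara, highest in sample 3 of each group, did not show. The target genes described so far belong to the 22 with a higher value in Cpt1bcKO. Among the 10 with a lower value, Abcd2 had the lowest log2 fold change, −0.51 (adjusted p = 0.423, limma), without overlap. It was followed by Lpl at −0.35 (adjusted p = 0.593) and Acadm at −0.29 (adjusted p = 0.599), both with overlap.

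Averaged over the list, the log2 differences from the mean of the controls were 0.36, 0.09 and −0.44 in CtrlCre samples 1, 2 and 3 and 0.71, 0.39 and −0.19 in the Cpt1bcKO samples. The samples of a group thus differed from each other by more than the groups did, in the same order in each group, and each Cpt1bcKO sample lay above the control of the same number. The labels do not say whether samples of the same number were paired. The corresponding means of the 10 regulators were 0.08, −0.04 and −0.04 in CtrlCre and 0.08, 0.02 and −0.02 in Cpt1bcKO, a much narrower range. With the high Xist pair as a covariate Pdk4 passed the threshold (adjusted p = 0.00918), whereas without any 1 of the samples the adjusted p was 0.112 to 0.437.

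**Figure D4:**
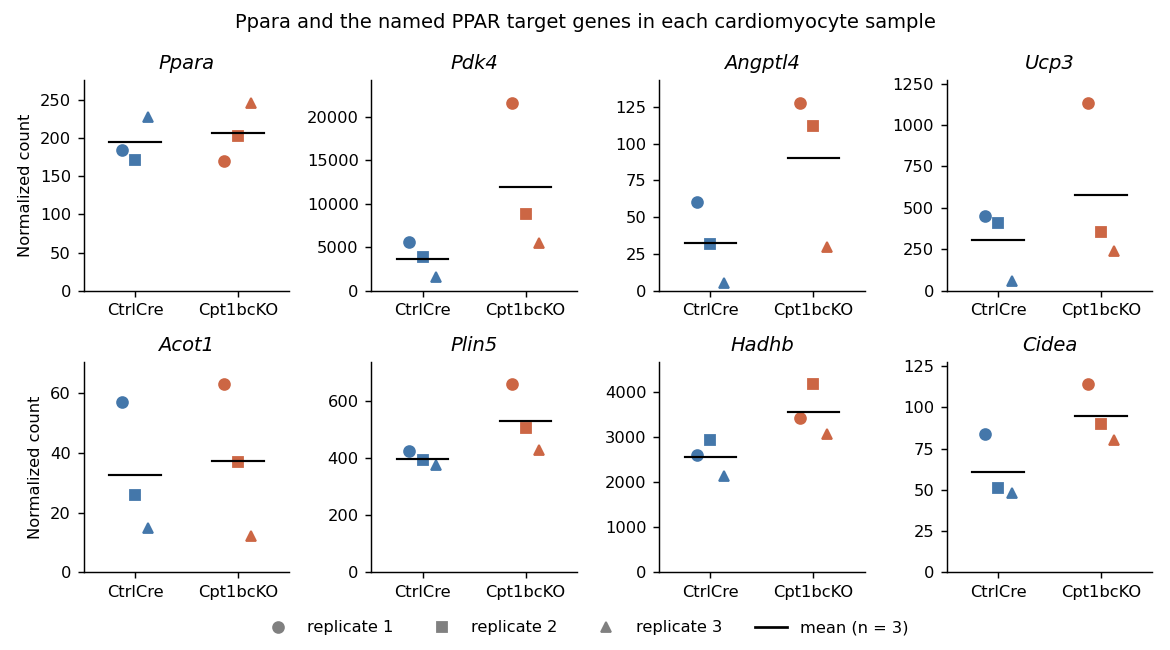
Normalized counts of Ppara and of 7 of the PPAR target genes named in the text, all with a higher mean in Cpt1bcKO, in each sample, with the y axis starting at 0. Symbols mark replicate numbers and black lines the mean (n = 3). Ppara lies at 170 to 247 in all samples, while Pdk4 ranges from 1573 to 21655.

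Targets of ERRs and PGC-1, 34 genes mostly of the Krebs cycle, the respiratory chain and mitochondrial transport, with the mitochondrial fusion genes Mfn1 and Mfn2, Vegfa and Fndc5, were all tested. Of these 29 had a lower and 5 a higher value in Cpt1bcKO, and the median log2 fold change was −0.19, whereas 50.2% of all genes tested were lower. No gene of the list passed an adjusted p of 0.05 (limma), and 1 was higher and 2 were lower at an unadjusted p below 0.05. Together these are 8.82% of the list, against 13.9% of all genes tested. The groups did not overlap in 7 of 34 genes, compared with 18.7% of all genes tested. When 1 sample was left out, the median ran from −0.30 without Cpt1bcKO sample 1 to −0.096 without CtrlCre sample 1. Without Cpt1bcKO sample 1 there were 11 lower genes and 1 higher gene at an unadjusted p below 0.05, and without CtrlCre sample 1 or Cpt1bcKO sample 2 there was 1 gene, which was higher. With the high Xist pair as a covariate 1 gene was higher and 11 were lower, and over the 4 samples with low Xist 1 was higher and 10 were lower. If values were scaled instead to the total without mitochondrially encoded and ribosomal RNA, which raised the median of all genes to 0.11, the list had 23 genes below 0 and 29 below the median gene, and the regulators 2 below 0 and 5 below the median gene. Under this scaling the median of the list was −0.081, or −0.19 relative to the median gene. At an unadjusted p below 0.05 it had 1 higher and 0 lower genes (limma).

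Ndufv1, a core subunit of complex I, was at 2421, 1866 and 1928 in CtrlCre and at 1616, 1434 and 1572 in Cpt1bcKO, without overlap (log2 fold change −0.42, SE 0.15, adjusted p = 0.225). Its adjusted p passed the threshold with the high Xist pair as a covariate (0.0460) and was 0.145 to 0.608 when 1 sample was left out. Cox7a1, the heart and muscle form of a complex IV subunit, was at 748, 797 and 641 in CtrlCre and at 698, 486 and 484 in Cpt1bcKO (log2 fold change −0.41, SE 0.18, adjusted p = 0.346), with Cpt1bcKO sample 1 among the controls. Cycs, the gene of cytochrome c and a classical NRF1 target, stood at −0.17 on the log2 scale (adjusted p = 0.694), and Ckmt2, mitochondrial creatine kinase, at −0.09 (adjusted p = 0.839).

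Vegfa went the other way. This gene of the main endothelial growth factor, which PGC-1 and ERRα activate and which is also a target of HIF1A, was at 1325, 1067 and 935 in CtrlCre and at 1615, 1869 and 2209 in Cpt1bcKO, without overlap. Its log2 fold change was 0.78 (SE 0.17, unadjusted p = 0.00105), a 1.71-fold higher value, and its adjusted p of 0.0582 was just above the threshold. The adjusted p was 0.0471 without a filter on low values and 0.0498 with a filter on every sample, with a range of 0.0257 to 0.249 over the fits that left out 1 sample. With the high Xist pair as a covariate it was 0.0159, and with scaling to the total free of mitochondrially encoded and ribosomal RNA 0.0253. Among the 4 samples with low Xist the log2 fold change of Vegfa was 1.02 (adjusted p = 0.00625, limma). This fit leaves out the highest control and the lowest Cpt1bcKO sample, which enlarges the difference by itself.

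**Figure D5:**
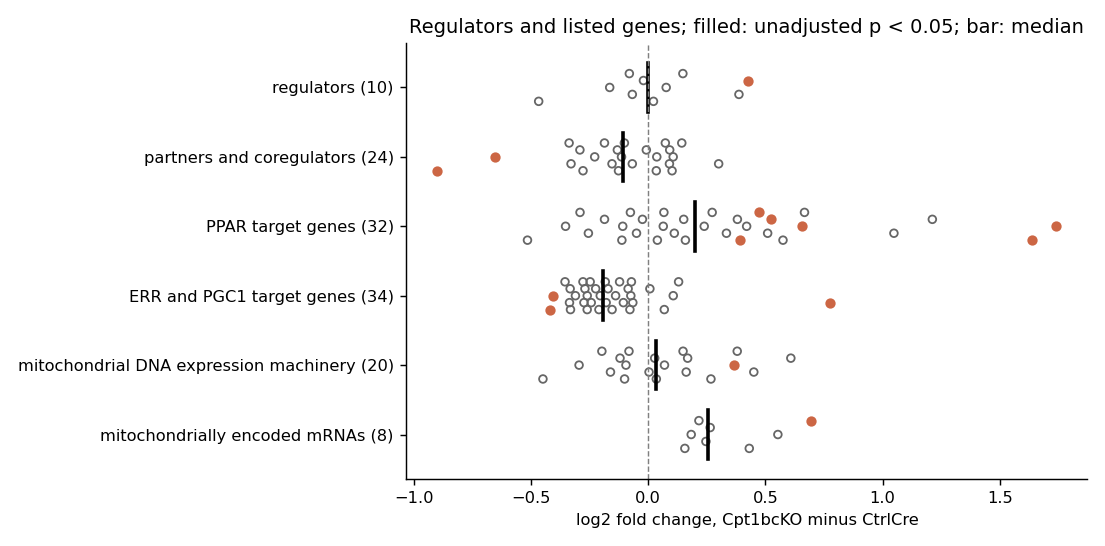
Log2 fold changes (Cpt1bcKO minus CtrlCre) of the regulators and of the genes of 5 lists, with the number tested in brackets. Each circle is a gene, filled where the unadjusted p was below 0.05, and black bars are medians. The median of PPAR targets lies at 0.20 and that of ERR and PGC-1 targets at −0.19.

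The genes that express mitochondrial DNA, downstream of NRF1 and GABP and acting with TFAM, were mixed. Of 22 listed 20 were tested, 12 with a higher and 8 with a lower value in Cpt1bcKO (median log2 fold change 0.03). There was no adjusted call and 1 higher gene at an unadjusted p below 0.05 (limma), which is 5.0% of the list against 13.9% of all genes tested. The median turned to −0.045 without CtrlCre sample 2, to −0.014 without Cpt1bcKO sample 1 and to −0.078 over the 4 samples with low Xist. Scaling to the total without mitochondrially encoded and ribosomal RNA gave a median of 0.14, against 0.11 for all genes. In that fit 5 genes of the list were lower, and 3 were higher at an unadjusted p below 0.05. As deposited, the 1 gene at an unadjusted p below 0.05 was Polg, the mitochondrial DNA polymerase. Polg was at 182, 214 and 202 in CtrlCre and at 260, 238 and 273 in Cpt1bcKO (log2 fold change 0.37, SE 0.16, adjusted p = 0.327). Its groups did not overlap. Polg did not reach that threshold without CtrlCre sample 1, CtrlCre sample 3, Cpt1bcKO sample 1 or Cpt1bcKO sample 3, over the 4 samples with low Xist or with 1 prior variance for all genes. Polrmt, the mitochondrial RNA polymerase, stood at a log2 fold change of 0.03 (adjusted p = 0.969), and the initiation and methyltransferase genes Tfb1m and Tfb2m had log2 fold changes of 0.61 (adjusted p = 0.385) and 0.45 (adjusted p = 0.580), both at values of 127 or less. Tfb1m was at 0.40 without CtrlCre sample 2, and Tfb2m at 0.18 without CtrlCre sample 3 and 0.14 without Cpt1bcKO sample 1.

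Of the 13 mitochondrial mRNAs, which TFAM, POLRMT and TFB2M transcribe, 8 had values. All 8 had a higher value in Cpt1bcKO (median log2 fold change 0.26, and 7 of 8 without Cpt1bcKO sample 3), against 49.8% of all genes tested. None was at an adjusted p below 0.05 and 1 at an unadjusted one (limma), a threshold that 13.9% of all genes tested reached. The gene at that threshold, mt-Nd3, had a far lower level than the other mRNAs, with a CtrlCre mean of 445 per kb of exon. The next lowest, mt-Nd4, had a mean of 50250 per kb, and why mt-Nd3 had so few reads was not tested. It was at 156, 161 and 148 in CtrlCre and at 251, 258 and 246 in Cpt1bcKO. This gave a log2 fold change of 0.70 with little spread within the groups (SE 0.15, adjusted p = 0.0528, limma). Its adjusted p was just below the threshold with scaling by the median of ratios (0.0460) and with a filter on every sample (0.0486), and also with a pseudocount of 5. Scaling to the total that leaves out mitochondrially encoded and ribosomal RNA gave 0.0292. The adjusted p was 0.0139 with the high Xist pair as a covariate and 0.0606 to 0.245 when 1 sample was left out. Averaged over the 8 genes, the log2 differences from the controls were 0.07, 0.07 and −0.14 in CtrlCre and 0.11, 0.35 and 0.57 in Cpt1bcKO. Cpt1bcKO samples 2 and 3 were also the samples with the most mt-Rnr2, 72.6% and 80.8% of all values, and the part of RNA composition in this difference was not tested.

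The genes whose pattern over the 6 samples was closest to those of Ppard and Ppargc1b were sought among 6796 others with a mean of at least 50. These 2 had the largest SD of log2 values among the regulators with such a mean, which leaves out Pparg (mean 32.2) and Nrf1. For Ppard they were Kif3b, Fpgt and Zscan29, with a root mean square difference in log2 values of 0.119 to 0.125. For Ppargc1b they were Ackr3 (0.0414), Mcts1 (0.0532) and Usp20 (0.0612). Ackr3, a scavenging chemokine receptor, was at 244, 194 and 171 in CtrlCre and at 239, 293 and 318 in Cpt1bcKO, the same order of samples as Ppargc1b. With 6 samples and this number of genes such a likeness is a description only.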

How the data were processed

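RNA of isolated CMs was sequenced from a stranded total RNA library. The authors trimmed reads (Trimmomatic 0.36), aligned them to mm10/GRCm38.p5 (STAR 2.5.4b) and counted reads on exons per gene (featureCounts 1.6.0), leaving out reads on several genes or regions, as the methods and the submitters' processing notes state. The annotation release and the strand setting are not given in the sources used here. The authors divided the counts by size factors with DESeq2 (1.14.1 in the notes) and deposited them rounded to whole numbers, a normalized score from which raw counts were not recovered. A count test was therefore not used. The deposited table also holds the authors' group means, log2 fold changes and p-values, which were not used.

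Values were transformed to log2(value + 1) and fitted with limma 3.58.1 (R 4.3.3) with a trend of the prior variance, for genes with at least 10 in at least 3 samples. Tests were two-sided and p-values adjusted over all genes tested by the Benjamini–Hochberg method. Fold changes are on this scale, which understates changes of low genes. The fit was tested on simulated data. Python 3.11.15 served for tables and drawings (pandas 2.3.3, numpy 2.4.6, matplotlib 3.10.9). Coordinates are those of the deposited table, exon lengths come from GENCODE vM21 matched by identifier, and promoters from RefSeq matched by symbol.

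Regulators and gene lists were chosen with earlier results of these data known, and motifs with the promoter sequences seen. Named genes are the 10 regulators, Cpt1b, up to 6 genes per list of partners, PPAR targets, ERR and PGC-1 targets and mitochondrial DNA expression, in order of unadjusted p below 0.05, and 16 genes fixed by name, of which some are not reported here. mt-Nd3, mt-Nd4, Col1a1, Lum, Fgf21, Abcd2, Lpl and Acadm were named after their values were seen. Alternatives were 2 other scalings, 2 filters, pseudocounts of 0.5 and 5, a replicate block, 1 prior variance, each sample left out and, added after the data were seen, 2 fits on the samples with high Xist.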

Additional observations from a re-analysis of the deposited data

How the results depend on the processing

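Regulators kept 0 adjusted calls (limma) in all alternatives, and 0 to 1 at an unadjusted p below 0.05 when 1 sample was left out. Directions near 0 turned. Scaling by the median of ratios gave log2 fold changes of 0.0014 for Pparg and 0.014 for Rxrg, and scaling to the total without mitochondrially encoded and ribosomal RNA gave 0.089 for Pparg, 0.045 for Ppargc1a, 0.032 for Tfam, 0.10 for Rxrg, 0.027 for Ckmt2 and 0.0036 for the median of the partners. Under the latter 70.9% of genes at an unadjusted p below 0.05 were higher, against 48.0% as deposited. Leaving out 1 sample gave −0.059 to 0.21 for Ppara, −0.34 to 0.35 for Pparg, −0.18 to 0.069 for Ppargc1a, −0.098 to 0.12 for Esrrb, −0.29 to 0.060 for Tfam, −0.40 to 0.75 for Acot1, −0.094 to 0.16 for Rxrg, −0.21 to 0.25 for Nrip1 and −0.049 to 0.18 for Polrmt. Over the 4 samples without high Xist Esrrb was at −0.021. Of all genes, 178 passed an adjusted p of 0.05 as reported, 41 with 1 prior variance for all genes, 574 with the high Xist pair as a covariate and 40 to 305 when 1 sample was left out, with 972 to 2208 at an unadjusted p below 0.05. The numbers 40 and 305 came without Cpt1bcKO samples 2 and 1, and their cause was not tested.

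Same-numbered samples deviated together weakly (r = 0.376, 0.255 and 0.0684 across genes, mean 0.233). For other numbers r was −0.33 to 0.15, with a mean of −0.113. The samples numbered 1 are also the pair with high Xist. The labels do not say whether samples were paired, and the main fit takes no account of the number. With the replicate block 603 genes passed an adjusted p of 0.05, 0 of them regulators, 6 of them PPAR targets and 2 of them ERR and PGC-1 targets. At an unadjusted p below 0.05 this fit had 14 higher and 3 lower PPAR targets and 1 higher and 12 lower ERR and PGC-1 targets. Of all 11364 genes tested, 1073 were higher and 1289 lower at this threshold in the same fit. The list genes with an adjusted call included Gabpa, Acot2, Angptl4, Decr1, Hadhb, Pdk4, Ndufv1, Vegfa and mt-Nd3. Low values limit the precision for Nrf1, Pparg and Ppard, and 3 samples a group limit that of all regulators.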

Other observations

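The spread between control samples was below that of genes of similar level for 5 of the 10 regulators and above it for the other 5. The ratio of the highest to the lowest CtrlCre value was 1.13 for Ppargc1a, against a median of 1.25 over the 700 genes tested within 2-fold of its mean, and 1.10 for Ppard, against 1.43 over 4187 genes. Ppargc1b (1.45 against 1.29) and Tfam (1.40 against 1.28) varied more than genes of their level. The summed value of the 10 regulators was 2587 to 2825 in CtrlCre and 2520 to 2826 in Cpt1bcKO. The ratio of Nrf1 to Tfam was 0.148, 0.143 and 0.181 in CtrlCre and 0.0838, 0.142 and 0.142 in Cpt1bcKO, without overlap between the groups but with neighbouring samples almost equal. The ratio of Ppard to Ppara was 0.303, 0.297 and 0.224 in CtrlCre and 0.435, 0.241 and 0.368 in Cpt1bcKO, with an overlap.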
